A study of Rattus norvegicus with 6 samples.

Results

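Fatty acid oxidation in the liver was followed through 8 genes: Cpt1a, Cpt2, Ehhadh, Hadha, Acadm, Acadl, Acaa1a and Pdk4. They were found as the probes whose RefSeq accession belongs to one of these rat symbols. All 8 were on the array, as 12 of its 61657 non-control probes, and all 8 were measured among the 15284 symbols the array carried. Hadha and Acaa1a each had 3 probes, and the other 6 genes had 1 probe each. The 8 genes are enzymes of fat oxidation and its switch; none of them makes ketone bodies, so the ketogenic enzymes were read from a list of related genes.

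The livers came from 6 male Sprague-Dawley (Crl:CD(SD)) rats, purchased at an age of 5 weeks and kept on a basal diet with tap water. Of these, 3 were given corn oil, which is itself a fat, and 3 were given bromodichloromethane, a chlorination by-product of drinking water, at 200 mg/kg/day. The labels name both 28 days and 9 weeks of dosing, so the duration is unsettled. Feeding before the livers were taken, the route of dosing and whether the dosed animals received the chemical in corn oil are not given in the sources used here. Each animal gave 1 single-colour array of whole-liver RNA.

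Fatty acids enter mitochondria as carnitine esters, made by the Cpt1 enzymes on the outer membrane and turned back into acyl-CoA by Cpt2 on the inner membrane. Beta-oxidation then shortens the chain in repeated rounds of dehydrogenation, hydration, a further dehydrogenation and thiolysis, run by separate enzymes in mitochondria and in peroxisomes. The acetyl-CoA formed in liver mitochondria can be turned into ketone bodies, which other organs burn. Many of these genes are known targets of PPAR alpha, a fatty acid sensor of the liver that binds DNA together with the retinoid X receptor, and Pdk4 turns the cell from glucose towards fat.

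Every level below is a scaled signal, which is the processed fluorescence of a probe divided by the 75th percentile of that array. Log2 fold changes are bromodichloromethane minus corn oil, with the standard error (SE) of limma's fit over all 28995 features. Adjusted p-values are Benjamini-Hochberg values over the same features, and a gene was called at an adjusted p under 0.05. Probes differ in brightness for the same amount of RNA, so levels were not set against each other between genes.

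None of the 8 genes was called, while 2715 of the 28995 features were (9.36%, of which 5.96% were higher and 3.41% lower in the dosed livers). The estimates of 4 genes lay above zero and those of 4 below, and their median was -0.0009, against 0.0014 over all features. This split and median depend on the probe that stands for Acaa1a, whose probes disagreed, as given below. With the mean over probes the median of the 8 was 0.25, against 0.0032 over all features. In that fit 1 of the 8 was called, higher, beside 9.52% of all features. In 3 of the 8 (37.5%) the 3 dosed animals did not overlap with the 3 controls, 1 of them higher (Ehhadh) and 2 lower (Acadm and Hadha). Over all features 34.4% did not overlap, 18.4% higher and 16.0% lower, so the share among the 8 genes was close to that background. Pdk4 had the largest estimate, 2.32-fold, and Ehhadh the next, 1.71-fold, and both lie on the higher side. The summed scaled signal of the 8 genes was 663 to 708 in corn oil livers and 598 to 722 in dosed livers, with overlap. In whole tissue, fewer cells of a type and less RNA per cell cannot be told apart.

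**Figure D1:**
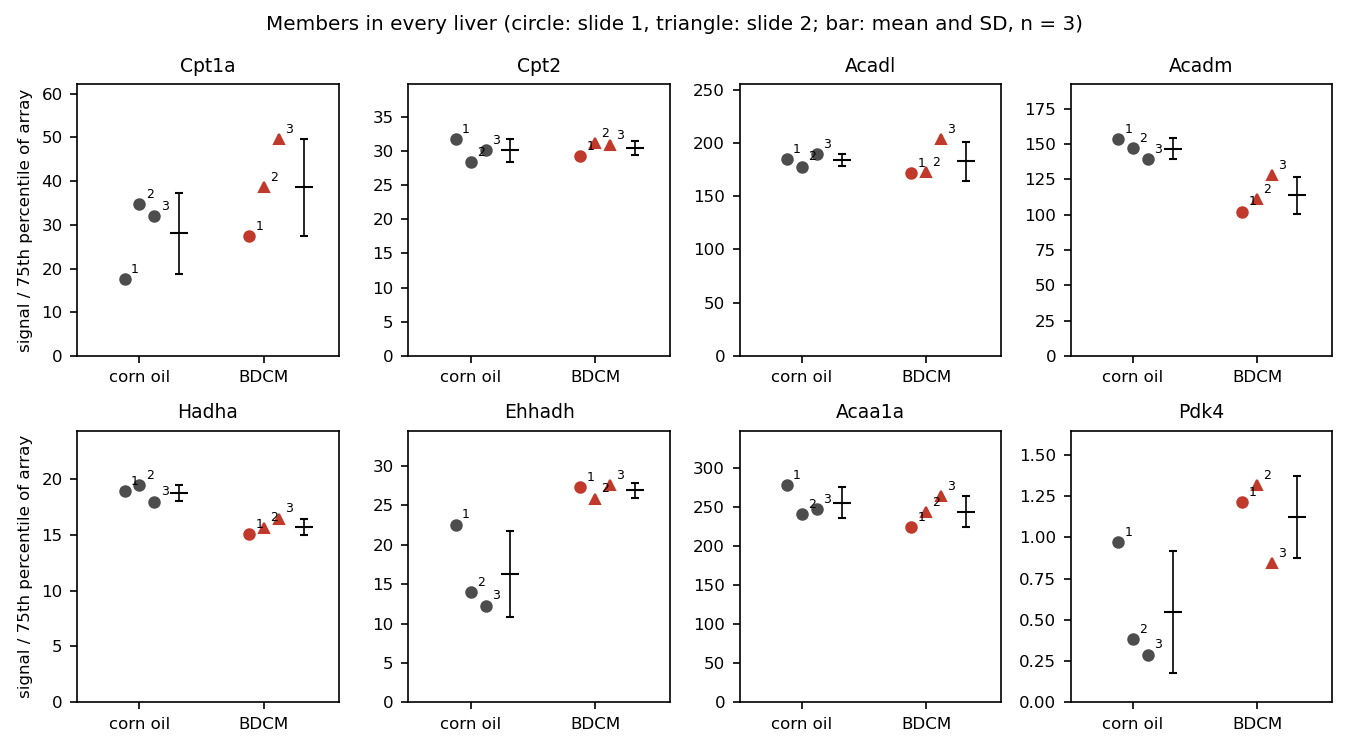
Scaled signal (linear axis from 0) of each of the 8 genes in every liver, with points numbered by replicate, circles for slide 1, triangles for slide 2, and bars for the mean and SD (n = 3); BDCM is bromodichloromethane. Ehhadh, Acadm and Hadha show groups that do not touch, while Cpt1a and Pdk4 spread widely within the corn oil group.

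**Figure D2:**
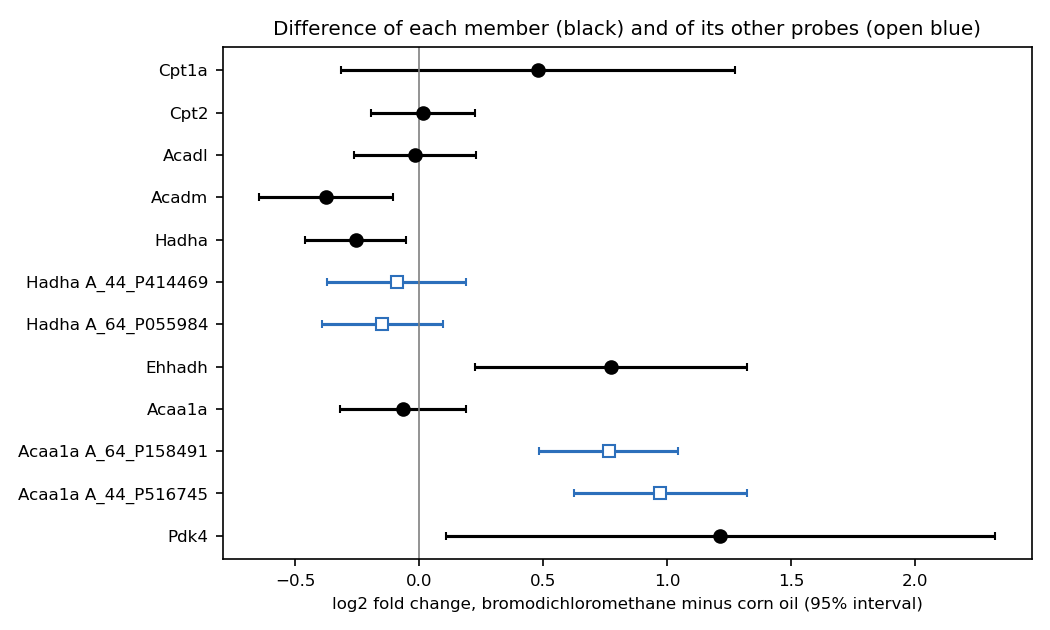
Log2 fold change of the 8 genes, bromodichloromethane minus corn oil, with the 95% confidence interval of limma's fit, black for the probe that stands for the gene and open blue for other probes of Hadha and Acaa1a. The intervals of Ehhadh and Pdk4 lie above zero and those of Acadm and Hadha below it before adjustment, and no black point passed an adjusted p of 0.05.

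Both enzymes of the carnitine route were measured. Cpt1a, the liver form of the gatekeeper that malonyl-CoA inhibits, stood at 17.5, 34.8 and 31.9 in the corn oil animals and at 27.4, 38.6 and 49.7 in the dosed animals. The lowest value was corn oil replicate 1 and the highest was dosed replicate 3, and the groups overlapped. The log2 fold change was 0.48 (SE 0.33, 95% interval -0.31 to 1.27, adjusted p = 0.40). That interval holds both no difference and a doubling. Against the same corn oil animals, all of which share slide 1, the difference was 0.03 for the dosed animal on that slide and 0.70 for the dosed animals on slide 2. Cpt2, which regenerates acyl-CoA on the matrix side, stood at 31.8, 28.4 and 30.2 with corn oil and at 29.2, 31.2 and 30.9 with bromodichloromethane. All 6 livers lay within a narrow band, with a log2 fold change of 0.01 (SE 0.087, interval -0.19 to 0.22, adjusted p = 0.93).

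The first dehydrogenation of the mitochondrial spiral is made by acyl-CoA dehydrogenases of different chain lengths. Acadl, the long-chain enzyme, stood at 185.2, 178.0 and 189.7 with corn oil and at 171.6, 172.6 and 204.0 with bromodichloromethane. The dosed animals bracketed the controls, with a log2 fold change of -0.02 (SE 0.10, interval -0.26 to 0.23, adjusted p = 0.94). Acadm, the medium-chain enzyme, stood at 153.7, 147.3 and 139.3 with corn oil and at 102.0, 111.0 and 127.9 with bromodichloromethane. All 3 dosed livers were below all 3 controls, by -0.37 on the log2 scale (SE 0.11, interval -0.64 to -0.10), and the adjusted p of 0.090 missed the threshold. With the trend and robust options of the moderated fit the adjusted p was 0.0495, just past it. The difference was -0.52 for the dosed animal on slide 1 and -0.30 for those on slide 2.

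Hadha, the alpha subunit of the mitochondrial trifunctional protein, carries the hydration and second dehydrogenation of long chains. Its brightest probe stood at 18.9, 19.4 and 17.9 with corn oil and at 15.0, 15.6 and 16.4 with bromodichloromethane. The groups did not overlap and the difference was small, -0.26 on the log2 scale (SE 0.085, interval -0.46 to -0.05, adjusted p = 0.11). Its other probes gave -0.15 (adjusted p = 0.40) and -0.09 (adjusted p = 0.67), in the same direction and smaller. With normexp background correction the brightest probe passed, at -0.31 with an adjusted p of 0.0496. For Hadha the difference was -0.32 for the dosed animal on slide 1 and -0.22 for those on slide 2, against the same controls. In Acadm and Hadha every dosed liver lay below every control, so the direction could not differ between slides. Scaled to the array's spiked-in transcripts instead, both turned to the higher side, 0.11 for Acadm and 0.23 for Hadha. That scaling moved the median of all features to 0.49, so both genes still stood below the bulk of features. The spiked-in transcripts averaged 12.44 to 12.55 (log2 of the processed signal) on the 4 arrays of slide 1 and 12.04 to 12.05 on the 2 arrays of slide 2, both of them dosed.

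The peroxisomal enzymes among the 8 were Ehhadh and Acaa1a. Ehhadh, the bifunctional enzyme of the classical peroxisomal pathway and a well-known target of PPAR alpha in rodents, stood at 22.5, 14.0 and 12.3 with corn oil. It stood at 27.3, 25.8 and 27.5 in the dosed animals, which were close to each other and above every control. The difference was 0.77 on the log2 scale (SE 0.23, interval 0.23 to 1.32), with an unadjusted p of 0.0133 and an adjusted p of 0.088 in limma. Corn oil replicate 1 was the control nearest to the dosed livers. Without it the log2 fold change was 1.03 and the adjusted p 0.023, in a fit that called 4.25% of all features. That was the only 1 of 6 such fits in which Ehhadh passed. With each animal left out in turn, the log2 fold change ran from 0.60 to 1.03 and the adjusted p from 0.023 to 0.22. The difference was 0.80 for the dosed animal on slide 1 and 0.76 for those on slide 2, where the value for slide 1 rests on 1 dosed animal. The log2 standard deviation was 0.46 among the controls and 0.05 among the dosed livers.

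Acaa1a, the peroxisomal 3-oxoacyl-CoA thiolase that closes each round, gave a different answer with different probes. The brightest, A_43_P11432, which stands for the gene here, read 278.0, 241.1 and 247.1 with corn oil and 224.4, 243.7 and 264.4 with bromodichloromethane. Its groups overlapped, with a log2 fold change of -0.07 (SE 0.11, interval -0.32 to 0.19, adjusted p = 0.74). A_44_P516745 read 107.2, 78.1 and 80.8 with corn oil and 183.8, 171.5 and 162.0 with bromodichloromethane, a rise of 0.97 (SE 0.14, 1.96-fold, adjusted p = 0.020). A_64_P158491 read 140.3, 116.6 and 114.2 with corn oil and 227.0, 200.0 and 202.0 with bromodichloromethane, a rise of 0.76 (SE 0.12, 1.70-fold, adjusted p = 0.021). On both of these probes all 3 dosed livers lay above all 3 controls. In that fit of every probe on its own, 8.52% of 39027 probes were called. Averaged over its 3 probes, Acaa1a passed at 0.56 (adjusted p = 0.034).

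Acaa1b is a near-identical copy of Acaa1a, so signal between the pair may be shared and the values of both genes are uncertain. Its brightest probe read 231.9, 175.5 and 168.3 with corn oil and 378.7, 370.4 and 361.5 with bromodichloromethane, a rise of 0.96 (SE 0.14, adjusted p = 0.018). The other probes of Acaa1b also rose, by 0.92 (adjusted p = 0.029) and 1.82 (adjusted p = 0.021). Over the 6 arrays the rising Acaa1a probes correlated with the Acaa1b probes at r = 0.985 to 0.996, while A_43_P11432 correlated with all of these at -0.27 to -0.16. These correlations are a description: the arrays fall into the same 2 groups for every probe. Within each array, A_44_P516745 stood -1.37, -1.63 and -1.61 log2 units from A_43_P11432 in controls and -0.29, -0.51 and -0.71 in dosed livers. This ratio within an array does not depend on the scaling. The pair was chosen after its values were seen, so the ratio is a description. A_43_P11432 was not flagged as saturated on any array. Which of the probes read Acaa1a alone was not tested.

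**Figure D3:**
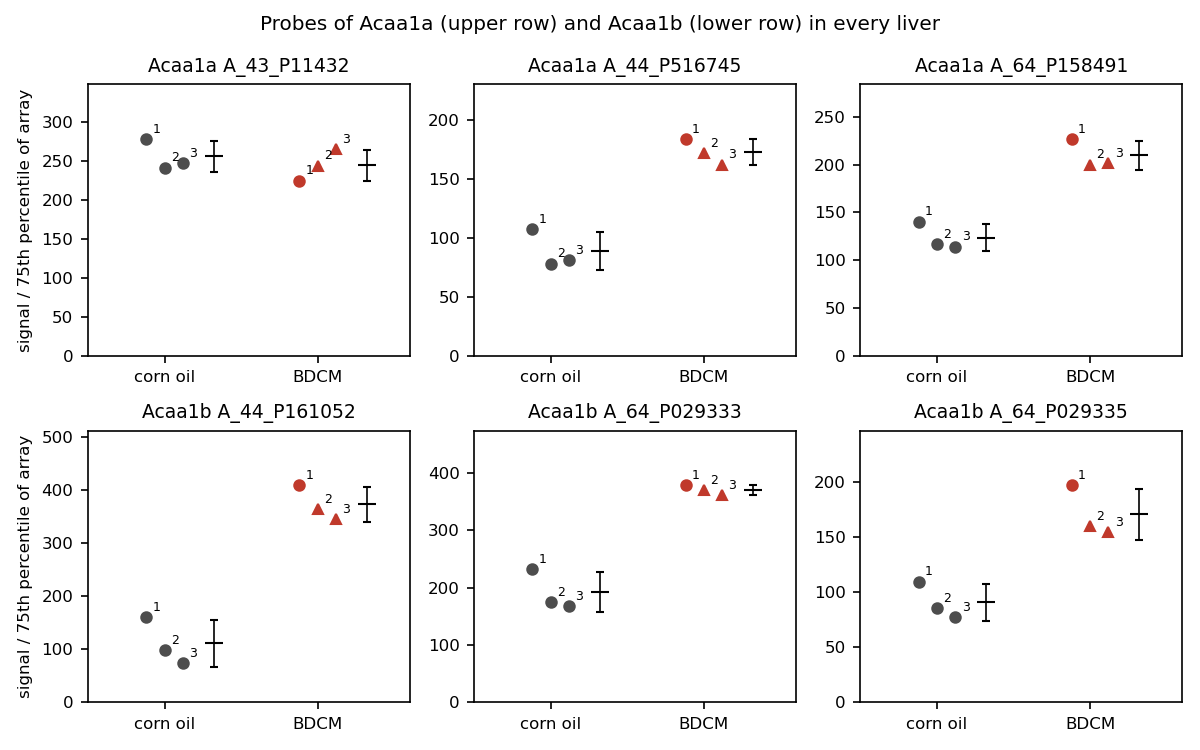
Scaled signal (linear axis from 0) of each probe of Acaa1a (upper row) and Acaa1b (lower row) in every liver, grey for corn oil and red for bromodichloromethane (BDCM), with circles for slide 1, triangles for slide 2, and bars for the mean and SD (n = 3). The brightest Acaa1a probe overlaps between groups, while the other Acaa1a probes and every Acaa1b probe lie higher in all 3 dosed livers.

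The sequences before the start sites of Ehhadh, of the thiolase pair Acaa1a and Acaa1b, and of Acadm, the one of the 8 genes with the lowest estimate, are given from RefSeq on GRCr8. Which copy of the pair each probe reads was not tested. Each run is the 250 bases before the start, 5′ to 3′ on the gene's strand, and capitals mark AGGNCA on either strand, the core motif bound by PPAR alpha and other nuclear receptors.
Ehhadh (GRCr8, chr11:92746159-92746408, plus strand): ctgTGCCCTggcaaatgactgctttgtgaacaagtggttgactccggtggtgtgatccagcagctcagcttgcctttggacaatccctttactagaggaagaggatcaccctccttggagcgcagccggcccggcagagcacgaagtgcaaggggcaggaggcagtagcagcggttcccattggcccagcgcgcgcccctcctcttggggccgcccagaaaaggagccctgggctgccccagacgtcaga
Acaa1a (GRCr8, chr8:127957231-127957480, plus strand): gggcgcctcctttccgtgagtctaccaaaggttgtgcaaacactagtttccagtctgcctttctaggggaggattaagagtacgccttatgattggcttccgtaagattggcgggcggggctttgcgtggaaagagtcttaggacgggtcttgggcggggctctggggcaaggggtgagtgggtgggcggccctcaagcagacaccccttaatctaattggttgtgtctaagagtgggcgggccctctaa
Acaa1b (GRCr8, chr8:127759570-127759819, minus strand): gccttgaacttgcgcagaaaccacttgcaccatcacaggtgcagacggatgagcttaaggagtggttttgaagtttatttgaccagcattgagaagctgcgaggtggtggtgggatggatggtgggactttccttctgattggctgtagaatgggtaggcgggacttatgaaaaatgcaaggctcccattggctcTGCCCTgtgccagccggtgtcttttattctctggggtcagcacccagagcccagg
Acadm (GRCr8, chr2:245542865-245543114, minus strand): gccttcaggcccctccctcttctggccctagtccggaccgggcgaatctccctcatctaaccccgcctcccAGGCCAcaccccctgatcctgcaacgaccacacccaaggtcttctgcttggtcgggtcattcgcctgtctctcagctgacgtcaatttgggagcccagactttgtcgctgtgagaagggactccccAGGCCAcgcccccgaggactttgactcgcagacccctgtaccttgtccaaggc
Such windows were found for 7 of the 8 genes, not for Acadl. The core motif AGGNCA lay in 5 of the 7, and in 51.2% of the 33469 windows of this length. Ehhadh, Acaa1b, Cpt1a and Hadha each held 1 match, Acadm 2 and Cpt2 3. Acaa1a and Pdk4 held none. A direct repeat of this motif with 1 base between, the arrangement PPAR alpha binds, contains the core motif and was found in none of the 7 and in 0.368% of all windows. The CCAAT box CCAAT was found in 3 of the 7 (34.0% of all windows), and the GC box GGGCGG in 5 (30.5%). The cAMP response element TGACGTCA was found in Acadm alone (1.59%), and both strands were searched throughout. These matches describe letters in a short window and say nothing of binding.

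Pdk4, the kinase that switches off pyruvate dehydrogenase in fasting and so spares glucose, stood at 0.972, 0.382 and 0.289 with corn oil. In the dosed livers it stood at 1.21, 1.31 and 0.844. Corn oil replicate 1 lay above dosed replicate 3, so the groups overlapped. The log2 fold change was 1.22 (SE 0.46, interval 0.11 to 2.32, unadjusted p = 0.036, adjusted p = 0.15). Without corn oil replicate 1 it was 1.73 with an adjusted p of 0.036, again in the fit that called 4.25% of all features. Pdk4 passed in only that 1 of the 6 fits. Their log2 fold changes ran from 0.86 to 1.73 and their adjusted p-values from 0.036 to 0.34. The difference was 1.35 for the dosed animal on slide 1 and 1.15 for those on slide 2.

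The 8 genes differed in how evenly they were expressed between animals of a group. The pooled log2 standard deviation was 0.69 for Pdk4, 0.49 for Cpt1a and 0.33 for Ehhadh, larger than in 96.7%, 92.3% and 82.1% of all features. It was 0.068 for Cpt2 and 0.061 for Hadha, larger than in only 8.33% and 6.17% of features, and 0.11 to 0.13 for Acadl, Acaa1a and Acadm. The median over all features was 0.165. Cpt1a, the gate, thus varied far more between animals than Cpt2, and in Cpt1a, Ehhadh and Pdk4 corn oil replicate 1 stood apart from the other controls, below them in Cpt1a and above them in Ehhadh and Pdk4.

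The genes whose log2 pattern over the 6 arrays was most like each of the 8, of 11404 measured symbols, are given as a description, 1 or 2 for each. Acadm ran closest to Scp2 (r = 0.998), which encodes a peroxisomal thiolase and a sterol carrier, and Ndufb11 (0.994), a complex I subunit. Hadha ran closest to Ndufv3 (0.995), another complex I subunit, and Rasl10a (0.994). Ehhadh ran close to Nup62 (0.996), and Pdk4 closest to Nudt18 (0.991) and Ttc21b (0.990). For Cpt1a the closest were Ly96 (0.986) and Samsn1 (0.980), and for Cpt2 they were Timd2 (0.981) and Or4a77 (0.975). Acadl ran closest to Ddrgk1 (0.988) and Paip2 (0.985), and Acaa1a to Nubp1 (0.991) and Myl6 (0.987).

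The lists of related genes set these values in their pathway. Of their 104 measured genes, 11 were called (10.6%, against 9.36% of all features), 7 higher and 4 lower. None of 17 genes of fatty acid activation and the carnitine shuttle was called (median -0.10). The lowest p there belonged to Crot, the peroxisomal carnitine octanoyltransferase, at -0.79 (adjusted p = 0.0997), and to Slc27a5, the bile acid and long-chain fatty acid CoA ligase, at -0.85 (adjusted p = 0.11).

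Of 14 other genes of mitochondrial beta-oxidation 2 were called, both lower (median -0.07). Hadh, the dehydrogenase of medium and short chains, stood at 323.8, 270.3 and 289.7 with corn oil and at 185.9, 211.0 and 226.4 with bromodichloromethane, a fall of -0.50 (SE 0.12, adjusted p = 0.049). Acads, the short-chain partner of Acadm, stood at 121.5, 108.7 and 105.0 with corn oil and at 83.2, 85.7 and 84.1 with bromodichloromethane, a fall of -0.40 (SE 0.09, adjusted p = 0.046). In both genes, as in Acadm, every dosed liver lay below every control. Both calls ended when any 1 animal was left out, in fits that called 1.16% to 4.25% of all features. Over the animals left out, Hadh ran from -0.57 to -0.43 and Acads from -0.45 to -0.34. With the spiked-in scaling Hadh stood at -0.02 and Acads at 0.08, against a median of 0.49 over all features.

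Of 16 other peroxisomal genes 1 rose, Acaa1b as above, and 1 fell (median -0.14). Phyh, which starts the breakdown of phytanic acid, stood at 42.0, 40.5 and 34.5 with corn oil and at 21.9, 21.5 and 25.9 with bromodichloromethane, a fall of -0.76 (SE 0.12, adjusted p = 0.022). Its groups lay well apart. Among these peroxisomal enzymes, then, the probes named for the thiolase copy rose and Phyh fell. The calls of Acaa1b and Phyh each held in 2 of 6 fits that left out 1 animal: Acaa1b without corn oil replicate 1 or 3, and Phyh without corn oil replicate 3 or dosed replicate 3. With spiked-in scaling Phyh stood at -0.27 (adjusted p = 0.21) and was not called, against a median of 0.49 over all features.

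Ketone body synthesis and export gave 1 call in 7 measured genes (median -0.13). The called gene was Bdh2, a cytosolic dehydrogenase named for 3-hydroxybutyrate, at 0.346, 0.475 and 0.516 with corn oil and 0.853, 0.693 and 0.727 with bromodichloromethane, a rise of 0.78 (SE 0.17, adjusted p = 0.046). Of 2 measured genes of ketone body use, Oxct1, the transferase that lets other tissues burn ketone bodies, rose from 0.275, 0.289 and 0.269 to 0.446, 0.380 and 0.364, by 0.51 (SE 0.11, adjusted p = 0.038). The other, Aacs, had a lower estimate with bromodichloromethane and was not called, at -0.62 (adjusted p = 0.27). Both genes were at low signal. The calls of Bdh2 and Oxct1 both ended without any 1 of the 6 animals. Over the animals left out, Bdh2 ran from 0.61 to 0.90 and Oxct1 from 0.42 to 0.57.

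The target of Pdk4 gave no call: none of 12 genes of the pyruvate dehydrogenase complex and its regulators passed (median 0.14). Mpc1, a subunit of the mitochondrial pyruvate carrier, gave -0.40 (adjusted p = 0.063) and Dlat, the E2 subunit of the complex, 0.33 (adjusted p = 0.16). Of 16 genes that control fatty acid oxidation, 1 was called (median -0.05). Rxra, the DNA-binding partner of PPAR alpha, stood at 1.16, 1.11 and 1.09 with corn oil and at 0.864, 0.717 and 0.786 with bromodichloromethane, a fall of -0.51 (SE 0.10, adjusted p = 0.032). Without 1 animal this call held only in the absence of dosed replicate 1. Over the animals left out, Rxra ran from -0.58 to -0.44. With the spiked-in scaling Rxra stood at -0.03, against a median of 0.49 over all features. Ppara itself stood at 1.06, 1.57 and 4.06 with corn oil and at 1.79, 1.79 and 3.41 with bromodichloromethane, an overlap that gave 0.23 (adjusted p = 0.81).

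Targets of PPAR alpha outside the oxidation enzymes gave 4 calls in 22 measured genes (18.2%), all higher (median 0.07). Over all features 5.96% were called higher. The list did not move as 1: 13 of the 22 estimates lay above zero and 9 below. The groups did not overlap in 10 of the 22 (45.5%, against 34.4% of all features), 7 of them higher and 3 lower. The called genes were as follows. Acot1, a cytosolic acyl-CoA thioesterase, stood at 2.13, 1.63 and 2.55 with corn oil and at 23.9, 20.8 and 19.4 with bromodichloromethane, a rise of 3.36 (SE 0.18, adjusted p = 0.0021). Acot2, its mitochondrial relative, rose from 23.0, 16.8 and 20.8 to 44.3, 46.6 and 43.2, by 1.16 (SE 0.13, adjusted p = 0.010). Both genes separated the groups by far more than the spread within them. Me1, the cytosolic malic enzyme, stood at 13.7 or below with corn oil and at 20.4, 20.9 and 19.4 with bromodichloromethane, a rise of 0.73 (SE 0.14, adjusted p = 0.030). Aqp7, a glycerol channel, rose by 2.23 (SE 0.49, adjusted p = 0.044) at low signal. Leaving out 1 animal at a time, Acot1 kept its call in all 6 fits, Acot2 in 5 (not without dosed replicate 2), Me1 in 1 (without corn oil replicate 1) and Aqp7 in none. With normexp Aqp7 gave 1.32.

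**Figure D4:**
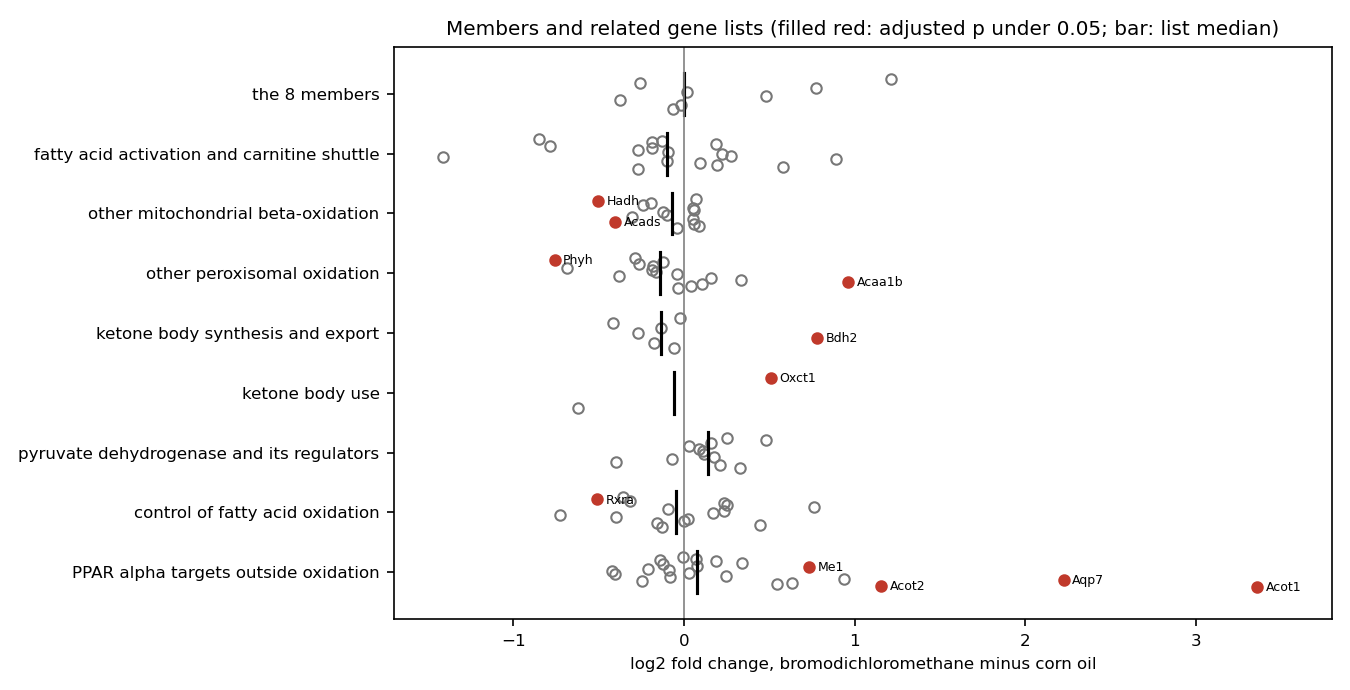
Log2 fold change of each measured gene, bromodichloromethane minus corn oil, for the 8 genes and the 8 related lists, with list medians as bars and called genes filled and named. None of the 8 genes is filled, and the 11 called genes of the related lists lie on both sides of zero, with Acot1 farthest out at 3.36.

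Markers of the liver's cell types were read beside these values. All 10 hepatocyte markers were measured, as the label of liver implies, with a summed scaled signal of 5510 to 6166 in corn oil livers and 4555 to 5192 in dosed livers. Those ranges do not overlap, the median of the list was -0.25, and 2 of the 10 were called, both lower (Apoa2 at -0.57 and Serpina1 at -0.50). With quantile normalization that median was -0.018 with 0 of the 10 called, against 0.011 over all features. With spiked-in scaling it was 0.23 with 2 of the 10 called, both higher. That scaling put the median of all features at 0.49 and called 44.1% of them, so the list median still lay below the bulk of features. The lower values of Acadm, Hadha, Hadh and Acads thus stood beside a lower hepatocyte sum, whose part in them was not tested. The bile duct sum was 1.75 to 1.91 against 2.58 to 3.74 in dosed livers (1 of 5 measured genes called, Epcam, higher). Epcam rose by 1.12, while Spp1 (0.22), Krt19 (0.16), Krt7 (0.12) and Cftr (-0.03) were not called, so that sum mostly followed 1 gene. The lymphocyte sum was 3.08 to 3.85 against 4.31 to 4.94 (1 of 6, Cd3e, higher and not well above background on any corn oil array). The endothelial sum was 44.8 to 47.7 against 37.6 to 40.1 (1 of 4, Lyve1, lower). The macrophage sums overlapped, 227 to 282 against 235 to 274, with 0 of 10 called, and so did the stellate sums, 20.3 to 26.0 against 21.0 to 22.4, with 0 of 8. The muscle sums were 0.90 to 1.03 against 0.91 to 0.94 (0 of 4 called). Of 6 adipocyte markers 2 were measured, with sums of 9.56 to 11.9 against 8.12 to 13.0, and the defining Adipoq and Lep were not well above background on all arrays of either group.

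The slides limit every comparison: all 3 corn oil arrays and dosed replicate 1 shared slide 1, and dosed replicates 2 and 3 shared slide 2. The 75th percentile of an array was 670 to 825 fluorescence units, and 61.3% to 66.9% of the non-control probes were well above background. With slide as a fixed block 1 of the 11 called related genes, Acot1, stayed past the threshold. That fit called 1.21% of all features. Its estimates set dosed replicate 1 against the 3 controls. In all 11 genes every dosed liver lay on the same side of every control, so no direction could reverse there.

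**Figure D5:**
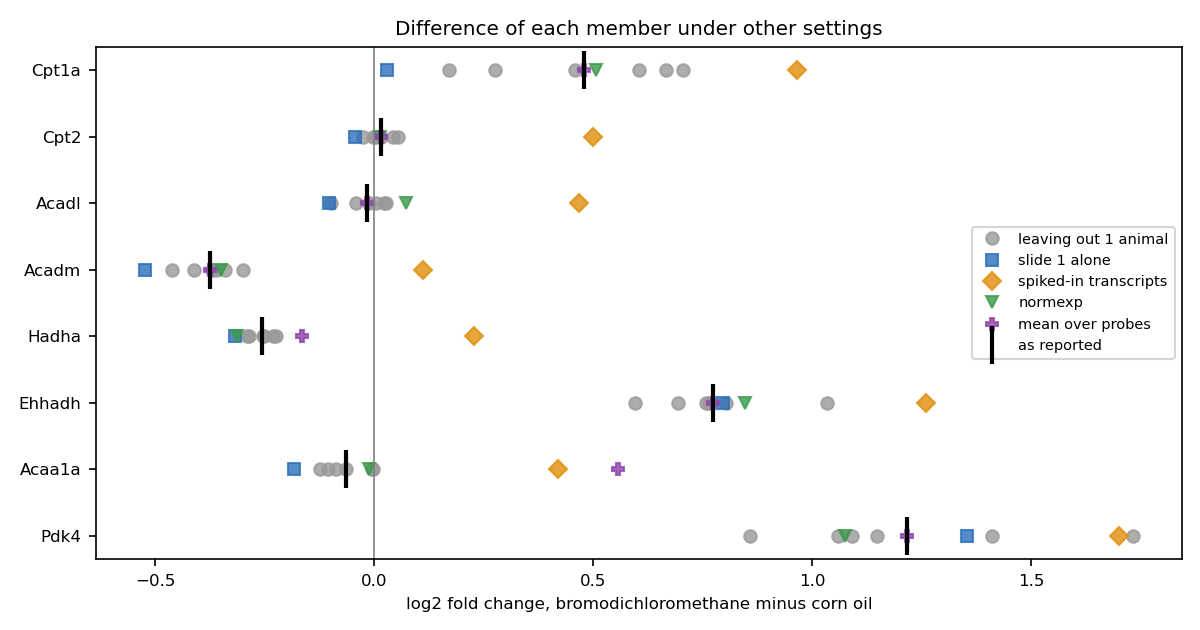
Log2 fold change of the 8 genes as reported (black bars) and under other settings, with 1 animal left out, slide 1 alone, spiked-in scaling, normexp and the mean over probes. Ehhadh and Pdk4 stay above zero throughout, Acadm and Hadha cross zero only with the spiked-in scaling, and Acaa1a moves to 0.56 with the mean over probes.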

How the data were processed

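Total RNA of 6 rat livers, 1 per animal, was labelled with Cy3 and hybridised to Agilent arrays, per the labels' protocols. The software that read the scans was, per the submitters' processing notes, Agilent Feature Extraction 10.7. The deposited scanner files hold a processed fluorescence intensity per spot, corrected for background per the file headers and with no scaling from array to array. The deposited table of values holds a linear ratio that, from the values, equals the processed intensity over the array's 75th percentile within 1% for at least 96.4% of probes. It served as an alternative.

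From the log2 processed intensities of each array its 75th percentile (controls left out) was subtracted. Control spots and 27 probes with outlier flags were left out. Probes had to stand well above background in every animal of one group or the other, and the brightest probe stood for a gene. Names came from unversioned accessions matched to RefSeq transcripts of GRCr8, a later build than that of the array (27460 probes with 1 symbol, 34197 with none). The test was limma 3.58.1 under R 4.3.3 (lmFit and eBayes, two-sided, Benjamini-Hochberg over 28995 features), and the code was tested on simulated data.

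The 8 genes and all lists were chosen with earlier results of these data known. Named were the 8 genes, the called genes of each list (at most 6) or its 2 smallest p where none was called, Ppara, and the 2 genes most like each of the 8. The results of some genes that this rule names are not reported here. The other probes of Hadha, Acaa1a and Acaa1b are given beside them, and Apoa2, Serpina1, Epcam, Cd3e and Lyve1 were named after their values were seen. So were Aacs and the bile duct markers given beside Epcam. Alternatives were normexp (offset 50, on the median signal), quantile normalization, median centring, spiked-in scaling (8 probes), other filters, the mean over probes, trend and robust options, the value table, slide and replicate blocks, and leaving out each animal. The number of arrays limits the precision.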

Additional observations from a re-analysis of the deposited data

How the results depend on the processing

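Of 156 estimates of the 8 genes under other settings, 132 kept their direction and side of the threshold, 7 kept their direction and moved past it, and 17 reversed, 3 of them (all Acaa1a) also past it. The 156 are not separate checks. The trend and robust options and the replicate block leave an estimate unchanged, so no direction could reverse there. The other filters left the median of the 8 unchanged. Slide as a fixed block and slide 1 alone gave the same estimates. The number of the 8 genes called was 0 as reported, 1 with normexp (Hadha), 1 with trend and robust options (Acadm), 1 with the mean over probes (Acaa1a), 3 with spiked-in scaling (Cpt2, Ehhadh, Pdk4), and 0 to 2 with 1 animal left out. The share of all features called in those fits was 11.2% with normexp, 11.8% with trend and robust options, 9.52% with the mean over probes and 44.1% with spiked-in scaling. Features called were 2715 as reported, 12784 with spiked-in scaling, 609 with no filter, 350 with slide as a fixed block, 120 on slide 1 alone, and 335 to 1232 with 1 animal left out. Of the calls, 63.6% were higher, 74.2% with median centring and 97.6% with spiked-in scaling. With the replicate number as a block, 353 features and 0 of the 8 genes were called. The deviations of animals with the same number correlated at 0.092, 0.019 and 0.117, and each animal correlated best with its own number. With 3 arrays per group these correlations cannot decide whether the animals were paired. Spiked-in scaling moved Cpt2 to 0.50 and reversed Acadl (0.47), Hadha (0.23), Acadm (0.11), Acaa1a (0.42), Acads (0.080) and Mpc1 (0.084). Acadl also reversed with normexp (0.073), median centring (0.041) and without corn oil replicate 3 (0.0045), dosed replicate 1 (0.027) or dosed replicate 2 (0.02), within a range of -0.099 to 0.027 over the animals left out. Cpt2 reversed with quantile normalization (-0.029), slide as a fixed block (-0.043), slide 1 alone (-0.043), and without corn oil replicate 2 (-0.026) or dosed replicate 2 (-0.003), within a range of -0.026 to 0.055 over the animals left out. Acaa1a reversed with the mean over probes (0.56) and by its other probes (0.97, 0.76). Ppara reversed with slide as a fixed block (-0.073), slide 1 alone (-0.073), and without corn oil replicate 1 (-0.18) or dosed replicate 3 (-0.07), within a range of -0.18 to 0.79 over the animals left out. The cause of these changes was not tested. Where slide 1 alone was fitted, the single dosed array was assumed to vary like the controls.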
